A study of Mus musculus with 30 samples.

Results

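The Sox genes described here are *Sox1*, *Sox2*, *Sox3*, *Sox4*, *Sox5*, *Sox8*, *Sox9*, *Sox10*, *Sox11* and *Sox21*, chosen by their symbols from a table of read counts per gene. The list names 10 genes, of which 9 have a row among the 25400 genes of the table, and *Sox1* was not analysed here. All 9 passed the filter on low counts, which left 16582 genes for the tests. Poly(A) RNA was sequenced from mouse neural progenitor cells (NPCs) at day 8 of differentiation from embryonic stem cells (ESCs), in 24 libraries of 8 lines, 3 per line. These comprised wild type (WT), *Mbd3* KO (CRISPR-Cas9 directed at 2 exons of *Mbd3*), and *Mbd3* KO with 1 of 6 biotin-tagged constructs. The constructs were MBD3a (the longest isoform), MBD3ΔMBD (without the methyl-CpG binding domain), MBD2a (the long isoform with its glycine-arginine stretch), MBD2aΔGR (without that stretch), MBD2aR181C (a point mutation in the methyl-CpG binding domain) and the truncated isoform MBD2t, which lacks the coiled coil. All constructs sat at the same recombination site behind the ubiquitous CAG promoter, all lines derive from HA36CB1 ESCs (129×C57BL/6), and endogenous *Mbd2* was not targeted in any line. Values of 3 libraries are always listed in the same order, which itself has no meaning. Libraries of a line came from separate clones, except that the 3 MBD2t libraries are repeats of 1 clone, so that their spread holds no difference between clones. The point mutant carries a different residue number in the table than in the sample labels, and its columns were assigned because MBD2a had no other point mutant among the lines.

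SOX proteins are transcription factors that bind DNA through an HMG box and often act with a partner such as a POU factor. SoxB1 proteins (SOX1, SOX2 and SOX3) keep neural progenitors in an undifferentiated state, and SOX2 also belongs to the core pluripotency factors of ESCs. SOX21, of the SoxB2 group, opposes SoxB1 proteins and favours neurogenesis. SoxC proteins (SOX4 and SOX11) promote neuronal gene expression in committed precursors, SOX5 of the SoxD group acts in neural progenitors, neural crest and cartilage, and SoxE proteins act in gliogenesis (SOX9) and in the neural crest and its glia (SOX10), with SOX8 often expressed alongside them. MBD2 and MBD3 are alternative subunits of the NuRD chromatin remodelling and deacetylase complex, and the comparisons address which parts of either protein are needed when endogenous MBD3 is lost.

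Library totals lay between 27993858 and 49392806 counts (median 36797095), and 3 counts, taken as the floor, corresponded to between 0.0607 and 0.115 CPM (counts scaled to a common library size after TMM adjustment). These floors cover counting error only. The labels were checked against the reads of the targeted gene. *Mbd3* lay between 149 and 157 CPM in WT and between 34.2 and 73.8 CPM in *Mbd3* KO, where transcripts of the targeted gene were still counted. It lay between 168 and 198 CPM in MBD3a, between 423 and 496 CPM in MBD3ΔMBD and between 36.4 and 86.4 CPM in the 4 lines with an MBD2 construct. It thus separated WT and the MBD3 constructs from the other 5 lines but could not tell those apart, and *Mbd2* did not separate MBD2a from *Mbd3* KO, since 1 MBD2a library (67 CPM) lay inside the range of *Mbd3* KO (64.2 to 70.9 CPM). The labelled cell type was checked against 6 neural progenitor markers (*Nes*, *Pax6*, *Fabp7*, *Hes5*, *Vim*, *Msi1*), none of which was at 0 in any line. Their summed level lay between 1950 and 2320 CPM in WT and between 144 and 260 CPM in *Mbd3* KO, between 161 and 334 CPM in MBD2a and between 225 and 267 CPM in MBD2t. In the same 3 lines the sum of 6 ESC markers lay between 244 and 730 CPM, against 21.1 to 110 CPM in WT, and that of 6 trophoblast markers between 440 and 2060 CPM, against 135 to 281 CPM. The MBD2aΔGR libraries also stood apart from each other, with summed levels of 6 endoderm markers of 117, 96.4 and 1040 CPM. Fewer cells of a type and less RNA per cell cannot be told apart in these bulk samples, and the part of cell composition in the results was not tested.

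In the GENCODE annotation of mm9, *Sox2* (ENSMUSG00000074637.3) is a single exon on chr3:34548927-34551383 of the plus strand, inside an intron of the non-coding *Sox2ot*. *Sox3* is a single exon on chrX:58144545-58146605, *Sox21* on chr14:118632454-118636252, *Sox4* on chr13:29040788-29045582 and *Sox11* on chr12:28025562-28027574, all on the minus strand. *Sox5* spans chr6:143776945-144730497 of the minus strand, with 25 separate exonic segments. *Sox8* (chr17:25702837-25707631, minus strand) and *Sox9* (chr11:112643538-112649074, plus strand) have 3 exonic segments, and *Sox10* (chr15:78985343-78994920, minus strand) has 4. Whether the counting used the strand is not given in the sources used here. The values of *Sox4*, *Sox5* and *Sox21* are therefore uncertain, since their exons share 2616, 1330 and 713 bases with *Gm17419*, *4933415D12Rik* and *Gm4675* on the opposite strand. *Gm4675*, the only one of these with a row of its own, lay between 0.229 and 3.44 CPM. *Sox4* also shares 405 bases with a second gene model of the same name on the same strand.

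Promoter sequences (250 bases before to 50 after the annotated start) were found for 6 of the 9 genes in the RefSeq table of build GRCm38.p6, and not for *Sox3*, *Sox9* and *Sox10*. The entry for *Sox5* lies inside the gene, away from its outer start, and was not used. Their coordinates are of that build and cannot be set beside the mm9 positions above. The methyl-CpG binding domain of MBD2 recognises methylated CG dinucleotides, while that of MBD3 lacks residues needed for this. So that the CG content can be seen, 3 promoters are shown with every CG in capitals, chosen to set genes of like CG number and opposite change side by side. *Sox11* (chr12:27342669-27342968, minus strand, 21 CG) and *Sox8* (chr17:25570637-25570936, minus strand, 21 CG) hold the same number of CG and moved in opposite directions in *Mbd3* KO NPCs. *Sox21* (chr14:118236981-118237280, minus strand) holds 22 CG, and the gene fell.
Sox11: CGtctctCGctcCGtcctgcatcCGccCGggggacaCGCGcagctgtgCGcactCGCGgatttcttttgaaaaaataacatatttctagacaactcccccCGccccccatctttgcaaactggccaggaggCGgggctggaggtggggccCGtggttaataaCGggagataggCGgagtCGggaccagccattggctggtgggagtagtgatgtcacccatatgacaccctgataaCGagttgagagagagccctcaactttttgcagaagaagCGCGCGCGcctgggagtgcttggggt
Sox8: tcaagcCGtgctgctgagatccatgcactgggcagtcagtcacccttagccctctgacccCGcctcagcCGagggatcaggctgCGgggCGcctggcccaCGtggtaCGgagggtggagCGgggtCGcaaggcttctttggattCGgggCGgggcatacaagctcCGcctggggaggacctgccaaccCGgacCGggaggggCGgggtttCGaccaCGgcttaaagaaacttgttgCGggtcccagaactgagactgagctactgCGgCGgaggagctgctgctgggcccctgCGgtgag
Sox21: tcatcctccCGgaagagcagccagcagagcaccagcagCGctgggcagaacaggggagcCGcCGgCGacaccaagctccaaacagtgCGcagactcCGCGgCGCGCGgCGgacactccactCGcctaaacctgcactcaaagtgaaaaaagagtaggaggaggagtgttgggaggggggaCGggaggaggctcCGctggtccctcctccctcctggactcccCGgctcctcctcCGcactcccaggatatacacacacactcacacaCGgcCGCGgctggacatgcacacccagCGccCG
The promoter of *Sox2* holds 27 CG and that of *Sox4* holds 12, against a median of 7 over 32841 promoters of the same length. The numbers of *Sox2*, *Sox21*, *Sox11* and *Sox8* exceed those of 84.5%, 76.9%, 75.2% and 75.2% of these promoters. The motif CCAAT, searched on both strands, matched 4 times in *Sox4* and 1 time each in *Sox2* and *Sox11* (37.4% of all promoters hold it). Such matches describe the sequences only, and binding and methylation were not analysed here.

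In WT NPCs the SoxB1 and SoxC genes had the highest levels and *Sox8*, *Sox5* and *Sox10* the lowest. Levels between genes were compared as CPM per kilobase of exon. *Sox4* was at 185 ± 62.9 CPM per kilobase (SD, n = 3), *Sox3* at 128 ± 10.5, *Sox11* at 115 ± 40.1 and *Sox2* at 110 ± 2.98, and each neighbour in this order overlapped the next over the libraries. *Sox9* followed at 26.3 ± 10.3 and *Sox21* at 9.51 ± 3.11 CPM per kilobase, without overlap. *Sox8* (0.728 ± 0.0729) and *Sox5* (0.727 ± 0.309 CPM per kilobase) did not differ beyond their spread, and *Sox10*, at 0.172 ± 0.0994, was lowest. The 2 SoxB1 genes with a row varied least between the WT libraries, with coefficients of variation of 2.72% for *Sox2* and 8.17% for *Sox3*. Those of *Sox4*, *Sox11*, *Sox9* and *Sox5* were 34%, 35%, 39.1% and 42.5%. For these 4 genes the last-listed WT library was the lowest, and it also had the lowest summed level of 5 neuronal markers (1160 CPM, against 2880 and 2400 CPM), a relation that was not tested.

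**Figure D1:**
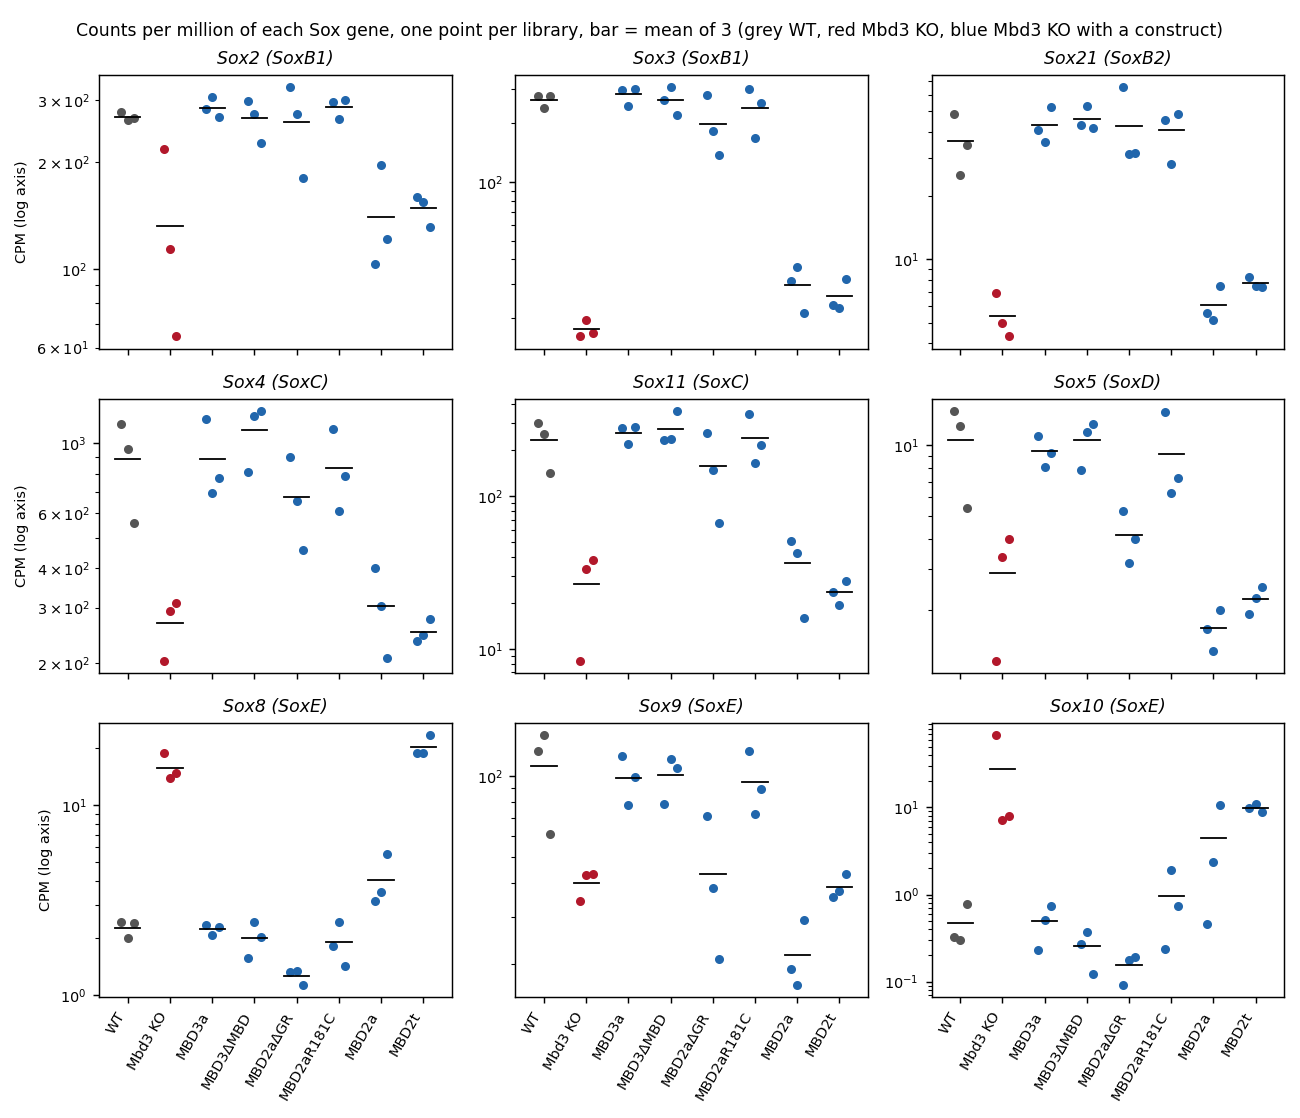
CPM (log axis) of the 9 Sox genes in every library, with the mean of each line as a bar. Grey points are WT, red points *Mbd3* KO and blue points *Mbd3* KO with a construct. All 3 *Mbd3* KO libraries lie below the WT libraries for 7 genes and above them for *Sox8* and *Sox10*.

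In *Mbd3* KO NPCs all 9 Sox genes passed the threshold (adjusted p under 0.05 and more than 2-fold), 7 down and 2 up. Over all genes tested, 33.8% were called in this comparison. The groups did not overlap for any of the 9, and 62.2% of all genes tested had no overlap. The median log2 fold change of the 9 genes was -1.73, against -0.03 over all genes tested. Within SoxE the genes moved in both directions. Adjusted p-values here and below come from the quasi-likelihood F test of edgeR over all genes tested.

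Both SoxB1 genes with a row fell. *Sox3* was at 278, 239 and 276 CPM in WT and at 16.1, 19.7 and 16.8 CPM in *Mbd3* KO. Its log2 fold change was -3.91 ± 0.271 (SE), or 15.1-fold lower, with an adjusted p of 6.75e-09. *Sox2* was at 277, 264 and 266 CPM in WT and at 218, 114 and 64.5 CPM in *Mbd3* KO. Each *Mbd3* KO library was lower than each WT library, but the 3 *Mbd3* KO libraries spread over more than the distance between the highest of them and WT. The log2 fold change of *Sox2* was -1.03 ± 0.304 (adjusted p = 0.00698), just past the fold threshold. The difference was -0.70 without the lowest *Mbd3* KO library, -0.93 without the middle one, and -0.97 under RLE scaling or with DESeq2, each of which ends the call. The order of the 3 *Mbd3* KO libraries was the same for *Sox2* and for the ESC markers, whose summed levels were 730, 390 and 244 CPM. The 2 orders also matched in MBD2t but in no other line. In MBD2aΔGR they were reversed, with *Sox2* at 326, 273 and 180 CPM and ESC markers at 49.9, 125 and 290 CPM. A relation between them was not tested. *Sox21*, the SoxB2 gene, was at 48.6, 25 and 34.8 CPM in WT and at 6.92, 5 and 4.31 CPM in *Mbd3* KO. It was 6.7-fold lower (log2 fold change -2.74 ± 0.31, adjusted p = 1.03e-06).

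The SoxC genes, which drive neuronal gene expression, also fell. *Sox11* was at 299, 253 and 142 CPM in WT and at 8.38, 33.2 and 38.2 CPM in *Mbd3* KO, 8.67-fold lower (log2 fold change -3.12 ± 0.539, adjusted p = 7.41e-05). *Sox4* was at 1147, 961 and 557 CPM in WT and at 204, 292 and 309 CPM in *Mbd3* KO, 3.31-fold lower (log2 fold change -1.73 ± 0.32, adjusted p = 0.000144). In both genes the first-listed *Mbd3* KO library was the lowest, and it also had the lowest summed levels of neuronal (105 CPM) and neural progenitor markers (144 CPM) of the 3. *Sox5* showed the same order at a low level, with 13.9, 12.1 and 5.43 CPM in WT and 1.23, 3.36 and 4.02 CPM in *Mbd3* KO. It was 3.59-fold lower (log2 fold change -1.85 ± 0.383, adjusted p = 0.000428).

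The SoxE genes split. *Sox9*, the gliogenic member, was at 123, 142 and 60.7 CPM in WT and at 34.4, 42.9 and 43.4 CPM in *Mbd3* KO, 2.7-fold lower (log2 fold change -1.43 ± 0.353, adjusted p = 0.00185). *Sox8* rose from 2.42, 2.01 and 2.39 CPM in WT to 18.8, 13.9 and 14.7 CPM in *Mbd3* KO. The rise was 6.93-fold (log2 fold change 2.79 ± 0.218, adjusted p = 2.54e-08), with little spread in either line. *Sox10*, the neural crest member, had 12, 11 and 32 reads in the WT libraries and 2362, 320 and 301 reads in the *Mbd3* KO libraries, or 0.322, 0.303 and 0.779 CPM against 67.5, 7.08 and 7.96 CPM. Its level thus rose from near the floor, and 1 library carried most of the reads. The log2 fold change was 5.83 ± 1.03 (adjusted p = 8.66e-05), and without the highest *Mbd3* KO library it was 3.97 (adjusted p = 0.000605).

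The summed level of the 9 genes per kilobase was 575 ± 110 CPM in WT and 158 ± 24 in *Mbd3* KO (SD, n = 3 each), and the order of the genes changed. Of the sum, *Sox3* took 23 ± 5.7% in WT and 5.48 ± 1.1% in *Mbd3* KO, and *Sox11* took 19.5 ± 3.5% and 8.95 ± 6%. *Sox2* took 19.5 ± 3.8% in WT and 32.6 ± 15% in *Mbd3* KO, where it ranked second after *Sox4* with overlapping levels. *Sox8* went from 0.131 ± 0.033% to 3.21 ± 0.26%, and *Sox10* from 0.0332 ± 0.026% to 5.78 ± 6.7%. Shares of a sum move with one another, so a higher share does not mean a higher level, and *Sox2* is an example.

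**Figure D2:**
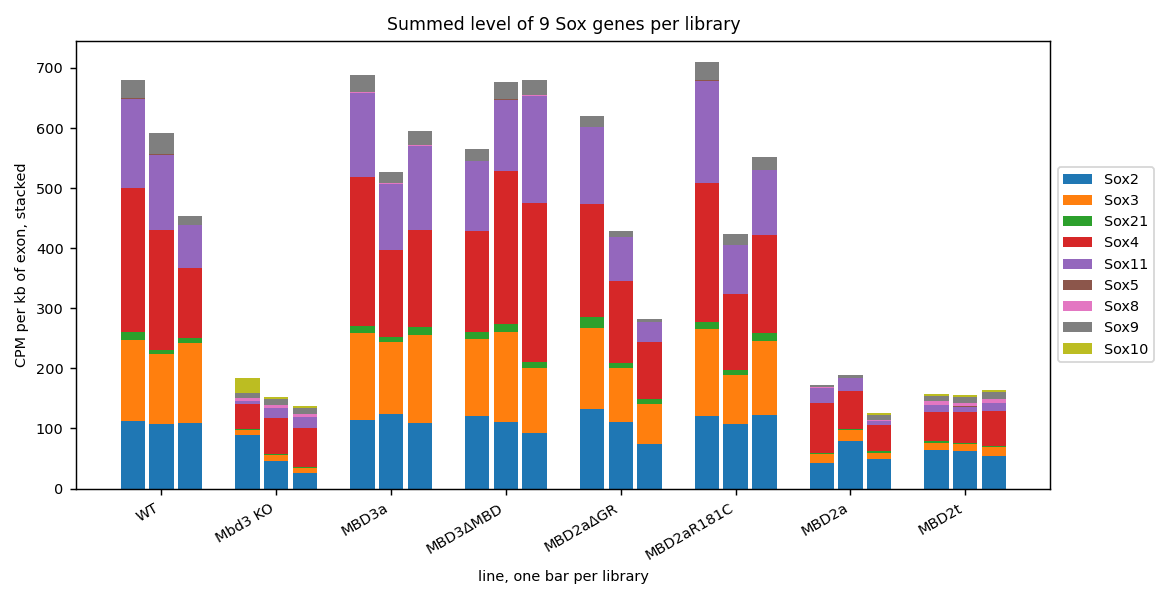
Levels of the 9 Sox genes in CPM per kilobase of exon, stacked, with 1 bar for each library and 3 bars for each line. The sum lies between 454 and 680 in WT, between 138 and 184 in *Mbd3* KO, between 126 and 189 in MBD2a and between 156 and 164 in MBD2t.

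Genes associated with SOX proteins were counted in lists, some of whose genes are also among the cell type markers above. The lists do not say whether a gene acts before or after a SOX protein. For comparison, 3248 of all 16582 genes tested rose in *Mbd3* KO and 2361 fell. All 12 SoxB1-associated progenitor genes fell in *Mbd3* KO (median log2 fold change -3.06), among them *Fabp7* (brain lipid-binding protein, -7.12), *Hes5* (a Notch effector, -6.93) and *Zic1* (a zinc finger factor of the neural plate, -6.75). All 10 SoxC-associated neuronal genes fell (median -5.1), with *Neurod4* (-7.56), *Neurog2* (-6.91) and *Neurog1* (-6.35), all proneural factors, moving farthest. Of 10 ESC genes associated with SOX2, 9 rose and 1 (*Fbxo15*) was not called. Among those of at least 1 in mean log2 CPM, the largest rises were those of *Tdgf1*, a Nodal co-receptor (log2 fold change 4.53), *Zfp42* (3.51) and *Esrrb* (3.13), a pair of pluripotency markers. Of 9 partner genes of SOX proteins tested, most of them POU or homeodomain genes, *Pou5f1*, the ESC partner of SOX2, rose (2.67). In the same list 5 fell, led by the neural POU genes *Pou3f4* (-7.05) and *Pou3f3* (-6) and by *Pax6* (-4.08). The last list, 12 glial and neural crest genes associated with SoxE proteins, had 2 genes that rose, 6 that fell and 4 that were not called. The falls were led by *Pax3* (-7.10), *Foxd3* (-5.20) and *Tfap2b* (-4.37), regulators of early neural crest, while the 2 that rose were *Cspg4* (4.80), known from glial precursors and pericytes, and the receptor gene *Erbb3* (2.85), both named after their values were seen.

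Of the 10 other Sox genes, 8 passed the filter, and *Sox14* and *Sry* had at most 2 reads in any library. *Sox6*, a SoxD gene like *Sox5*, fell 3.22-fold in *Mbd3* KO (28.1 ± 11.1 to 8.67 ± 4.72 CPM, adjusted p = 0.00813). *Sox15*, known from ESCs and trophoblast, rose 12.5-fold (0.768 ± 0.822 to 10 ± 5.72 CPM, adjusted p = 0.000483). The third SoxC gene, *Sox12*, was at 146 ± 39.8 CPM in WT and 77.9 ± 23.5 CPM in *Mbd3* KO, which passed the adjusted p (0.00962) but not the fold threshold, and *Sox17* went from 24.1 ± 4.93 to 11.3 ± 6.87 CPM (adjusted p = 0.0518). *Sox13*, the third SoxD gene, was at 105 ± 4.5 and 117 ± 13.3 CPM, and *Sox7*, *Sox18* and *Sox30* differed by at most 0.29 on the log2 scale. These 8 genes had a median log2 fold change of -0.11.

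MBD3a and MBD3ΔMBD each differed from *Mbd3* KO in all 9 Sox genes, 7 higher and 2 lower, where 32.4% and 35.9% of all genes tested were called. Against WT, none of the 9 was called in either line by edgeR or DESeq2, and none had an unadjusted p under 0.05. Over all genes, 0% and 0.0181% were called. All 9 overlapped WT in both lines, as most genes did, since 5.18% and 11.7% of all genes tested had no overlap. *Sox3* was at 298, 246 and 301 CPM in MBD3a and at 265, 307 and 222 CPM in MBD3ΔMBD. Its difference from WT was 0.09 on the log2 scale for MBD3a (95% interval -0.41 to 0.59) and 0.00 for MBD3ΔMBD (-0.50 to 0.50). For *Sox10* the intervals ran from -3.27 to 3.32 and from -4.63 to 2.74, with at most 21 reads per library. *Sox8* was at 2.35, 2.08 and 2.29 CPM in MBD3a and at 1.57, 2.42 and 2.02 CPM in MBD3ΔMBD. *Sox2*, higher than in *Mbd3* KO by 1.11 in MBD3a (adjusted p = 0.00435) and by 1.01 in MBD3ΔMBD (adjusted p = 0.00719), passed the fold threshold narrowly. Without the lowest *Mbd3* KO library these differences were 0.76 and 0.65, without the middle one 0.99 and 0.88, and for MBD3ΔMBD 0.93 and 0.97 without either of its first 2 libraries, none of which was called. For MBD3ΔMBD the call of *Sox2* was also lost with DESeq2 and under RLE scaling (both 0.93), without MBD2t (0.98) and without a filter (0.97). In an edgeR fit of only the 2 lines compared it was lost for MBD3a (adjusted p = 0.0522) and for MBD3ΔMBD (adjusted p = 0.057). MBD3a, MBD3ΔMBD and the MBD2 lines below share the same WT and *Mbd3* KO libraries.

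In MBD2a NPCs *Sox3*, *Sox21*, *Sox4*, *Sox11*, *Sox5* and *Sox9* were lower than in WT, and *Sox10* was higher. Against WT, 7 of the 9 genes were called, 6 lower and 1 higher, where 30.6% of all genes tested were called. *Sox3* was at 31.1, 36.7 and 21.2 CPM in MBD2a (log2 fold change against WT -3.16 ± 0.261, adjusted p = 2.2e-07), and each library was above the *Mbd3* KO libraries. That difference from *Mbd3* KO, 0.76 on the log2 scale, missed the threshold (adjusted p = 0.0643). *Sox21* was at 5.56, 5.16 and 7.49 CPM, *Sox11* at 50.7, 42.6 and 15.9 CPM and *Sox4* at 400, 302 and 207 CPM. These 3 genes overlapped *Mbd3* KO, with differences of 0.17 (95% interval -0.48 to 0.83), 0.45 (-0.61 to 1.51) and 0.18 (-0.48 to 0.83) on the log2 scale. *Sox2* was at 103, 196 and 122 CPM, which differed from WT by -0.94 ± 0.303 (adjusted p = 0.0132), under the fold threshold.

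Against *Mbd3* KO, MBD2a differed in 2 Sox genes, both SoxE and both lower, where 5.25% of all genes tested were called. *Sox8* was at 3.14, 3.51 and 5.50 CPM in MBD2a, below all *Mbd3* KO and above all WT libraries. It was 3.87-fold lower than in *Mbd3* KO (log2 fold change -1.95 ± 0.206, adjusted p = 6.87e-06), and 0.84 ± 0.228 above WT on the log2 scale (adjusted p = 0.00446), under the fold threshold. *Sox10* was at 0.46, 2.36 and 10.7 CPM (16, 80 and 421 reads), so that 1 MBD2a library lay in the WT range and 1 in the *Mbd3* KO range. Its difference from *Mbd3* KO was -2.57 ± 0.781 (adjusted p = 0.0452), and the groups overlapped. This difference was not called in a fit without MBD2t (adjusted p = 0.0778) or in a fit of only the 2 lines compared (adjusted p = 0.304). It was -0.71 without the highest *Mbd3* KO library (adjusted p = 0.595), -2.06 and -2.27 without either of the first 2 MBD2a libraries, none of them called, and -4.30 without the highest MBD2a library. It was higher than in WT by 3.26 ± 1.09 (adjusted p = 0.0159), but by 1.56 without the highest MBD2a library (adjusted p = 0.29) and by 3.05 and 3.03 without either of the first 2 WT libraries (adjusted p = 0.0545 and 0.0524). The highest MBD2a library also had the highest summed trophoblast markers of the MBD2a line (1990 CPM, against 499 and 440 CPM) and the lowest *Sox11* and *Sox4*. Its ESC (484 CPM) and endoderm markers (290 CPM) were also the highest of the line. Its neural progenitor (161 CPM) and neuronal markers (57.1 CPM) were the lowest. In *Mbd3* KO the library highest in *Sox10* had the lowest trophoblast markers of that line (1520 CPM). These relations were not tested. *Sox9* was at 19.3, 16.8 and 29.1 CPM in MBD2a, lower than all *Mbd3* KO libraries, and the difference of -0.89 ± 0.355 on the log2 scale missed the threshold (adjusted p = 0.135). Against WT it fell by 2.32 on the log2 scale (adjusted p = 4.58e-05), and *Sox5*, at 1.67, 1.36 and 2.01 CPM, fell by 2.62 (adjusted p = 4.5e-05).

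MBD2t NPCs differed from WT in most Sox genes and in none past the threshold from *Mbd3* KO. Against *Mbd3* KO none of the 9 genes was called by edgeR or DESeq2, where 0.0241% of all genes tested were called, and 1 gene, *Sox3*, had an unadjusted p under 0.05. The groups did not overlap for *Sox3* and *Sox21*, which was higher by 0.52 in MBD2t, and 19% of all genes had no overlap. *Sox3* was at 23.3, 22.5 and 31.9 CPM and *Sox8* at 18.7, 18.9 and 23.4 CPM. The difference of *Sox8* from *Mbd3* KO was 0.37 on the log2 scale (95% interval -0.02 to 0.76). *Sox10* was at 9.79, 10.9 and 8.94 CPM in all 3 libraries of the clone, a difference from *Mbd3* KO of -1.47, or 0.40 without the highest *Mbd3* KO library. Against WT 8 genes were called, 2 higher and 6 lower, where 33.4% of all genes tested were called, and *Sox2*, at 160, 154 and 131 CPM, was under the fold threshold (-0.86, adjusted p = 0.0201). *Sox2* had the highest level per kilobase of the 9 genes in this line (60.4 ± 6.09 CPM), ahead of *Sox4* (52.4 ± 4.43), and these ranges overlapped.

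The lists of genes around SOX proteins were also counted in the lines with a construct. Of the 16582 genes tested, 2797 were higher and 2280 lower than in WT in MBD2a, 3026 and 2505 in MBD2t, and 446 and 410 in MBD2aΔGR, where 5.16% were called in all. Against WT, the SoxC-associated neuronal genes were lower in 10 of 10 cases in MBD2a (median log2 fold change -4.46) and in MBD2t (-4.96), and the SoxB1-associated progenitor genes in 10 of 12 in MBD2a (-2.7) and 12 of 12 in MBD2t (-3.07). Of the ESC genes associated with SOX2, 9 of 10 were higher in each of these lines. Of the SoxE-associated genes, 2 were higher and 6 lower in MBD2a, and 2 higher and 7 lower in MBD2t. In MBD2aΔGR 1 of 12 progenitor genes was lower (median -0.51) and 1 of 10 ESC genes higher (median 1.27), and the medians of the neuronal and SoxE-associated genes were -0.72 and -0.42, against -0.01 over all genes tested. These counts in MBD2aΔGR are near the share over all genes.

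**Figure D3:**
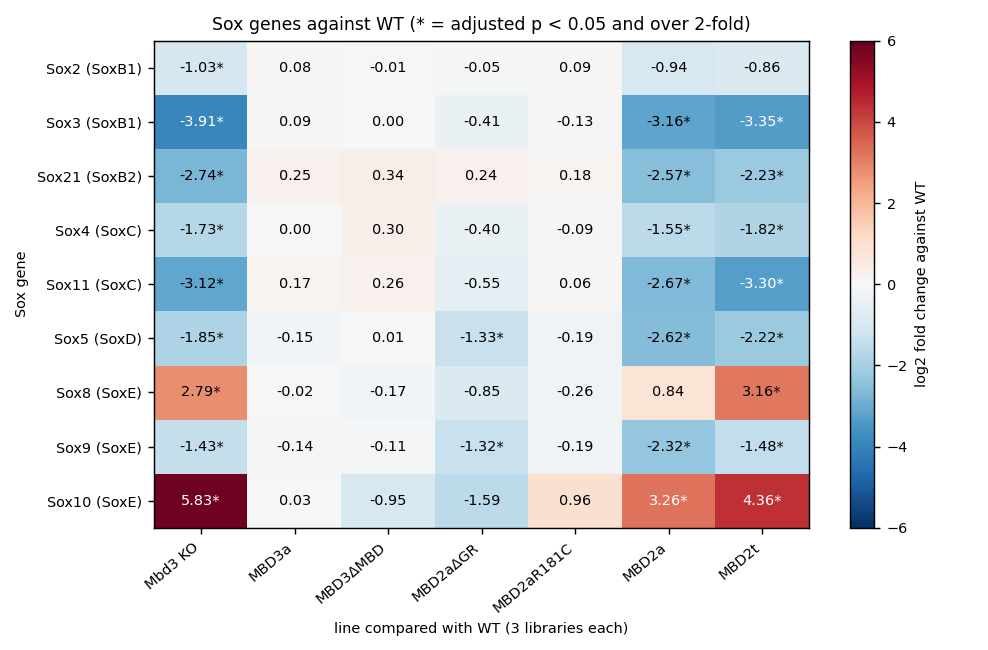
Log2 fold changes of the 9 Sox genes (rows) in each line against WT (columns), with 3 libraries per line and an asterisk for genes past the threshold. MBD3a, MBD3ΔMBD and MBD2aR181C have no asterisk, MBD2aΔGR has 2 (*Sox5* and *Sox9*), and *Sox8* reads 2.79 in *Mbd3* KO, 0.84 in MBD2a and 3.16 in MBD2t.

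In NPCs with the point mutant of MBD2a none of the 9 genes was called against WT by edgeR or DESeq2 and none had an unadjusted p under 0.05, where 0.0181% of all genes tested were called. All 9 overlapped WT, as most genes did, since 6.56% of all genes tested had no overlap. Against *Mbd3* KO all 9 were called, 7 higher and 2 lower, where 31.1% of all genes tested were called. *Sox3* was at 299, 168 and 255 CPM, and its difference from WT was -0.13 on the log2 scale (95% interval -0.63 to 0.37). The calls against *Mbd3* KO that rested on single libraries were those of *Sox2* (1.12, but 0.76 and 0.99 without the lowest or the middle *Mbd3* KO library) and *Sox9* (1.24, but 0.98 without the first-listed MBD2aR181C library). In an edgeR fit of only these 2 lines the call of *Sox2* was also lost (adjusted p = 0.0533). *Sox9* was at 123, 72.5 and 89.7 CPM and *Sox8* at 1.83, 2.44 and 1.43 CPM. *Sox10* was at 0.234, 1.93 and 0.741 CPM (11, 72 and 28 reads), and 1 of these libraries was above all WT libraries. That library, the second, also had the highest summed ESC markers of the line (226 CPM, against 23.4 and 84.5 CPM) and the lowest *Sox3*, *Sox4*, *Sox5*, *Sox9*, *Sox11* and *Sox21*.

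In MBD2aΔGR NPCs *Sox5* and *Sox9* were lower than in WT, and 3 of the 9 genes (*Sox5*, *Sox8* and *Sox10*) had no overlap with WT, where 18.8% of all genes tested had none. Against *Mbd3* KO 6 genes were called, 4 higher (*Sox3*, *Sox4*, *Sox11* and *Sox21*) and 2 lower (*Sox8* and *Sox10*), where 25.2% of all genes tested were called. *Sox3* was at 278, 183 and 137 CPM, *Sox21* at 65.2, 31.4 and 31.8 CPM and *Sox11* at 258, 147 and 66.6 CPM. Their log2 fold changes against WT were -0.41, 0.24 and -0.55, none of them called. *Sox2* was at 326, 273 and 180 CPM, higher than in *Mbd3* KO by 0.98 ± 0.303 on the log2 scale (adjusted p = 0.0128), under the fold threshold.

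Against WT 2 genes were called in MBD2aΔGR, both lower, where 5.16% of all genes tested were called. *Sox5* was at 5.28, 3.19 and 4.02 CPM, below all WT libraries (log2 fold change -1.33 ± 0.375, adjusted p = 0.0367). *Sox9* was at 71.0, 38.3 and 20.9 CPM (log2 fold change -1.32 ± 0.352, adjusted p = 0.0288) and overlapped WT. Both calls were lost in a fit of only these 2 lines (adjusted p = 0.335 for *Sox5* and 0.376 for *Sox9*). They were also lost in a fit without MBD2t (adjusted p = 0.0642 for *Sox5* and 0.0554 for *Sox9*). The same held when either of the first 2 WT libraries or either of the last 2 MBD2aΔGR libraries was left out. The differences then lay between -1.30 and -1.10 for *Sox5* and between -1.26 and -0.99 for *Sox9*. Against *Mbd3* KO, *Sox9* differed by 0.11 (95% interval -0.62 to 0.84) and *Sox5* by 0.52 (-0.32 to 1.36) on the log2 scale. The library with the lowest *Sox9*, *Sox2*, *Sox3*, *Sox4* and *Sox11* was the one with 1040 CPM of endoderm markers. It also had the highest summed ESC markers (290 CPM, against 49.9 and 125 CPM) and trophoblast markers (732 CPM, against 143 and 143 CPM) of the line. Its summed neural progenitor markers (1040 CPM, against 2150 and 1640 CPM) and neuronal markers (645 CPM, against 1860 and 1030 CPM) were the lowest. Of the endoderm markers 6 of 6 were called higher in MBD2aΔGR than in WT, largely through that library, and *Afp* and *Dab2* overlapped WT. *Gata4*, for example, was at 106 ± 161 CPM against 6.71 ± 1.68 CPM, and *Sox17* at 80.4 ± 48.2 against 24.1 ± 4.93 CPM (adjusted p = 0.0286). The summed level of 6 mesenchyme markers also moved, at 36.7, 64.2 and 25.5 CPM in MBD2aΔGR, all below the 235, 139 and 78.8 CPM of WT, and 3 of the 6 were called lower. The part of any of these cell types in the Sox differences was not tested. Without the library rich in endoderm markers *Sox9* differed from WT by -0.99 (adjusted p = 0.19). *Sox18*, an endothelial gene, was also lower in MBD2aΔGR (0.849 ± 0.521 against 6.24 ± 1.77 CPM, adjusted p = 0.00149). This was not particular to the line, since *Sox18* was at 1.74 ± 0.872 CPM in MBD2a. In MBD2t it was at 13.8 ± 1.82 CPM. *Sox8* was at 1.32, 1.34 and 1.14 CPM, below all WT libraries, a difference of -0.85 ± 0.264 that missed the threshold (adjusted p = 0.0522). *Sox10* had only 3, 6 and 7 reads (0.0921, 0.179 and 0.194 CPM), at or near the floor. Its mean was the lowest of all lines, but MBD3ΔMBD, with 7, 13 and 5 reads, overlapped it. The difference of *Sox10* from WT of -1.59 had a 95% interval of -5.65 to 2.47.

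The mutants were also compared with MBD2a directly. For MBD2aΔGR 7 of the 9 genes were called, 5 higher and 2 lower, where 18.6% of all genes tested were called. For MBD2aR181C 8 were called, 7 higher and 1 lower, where 27.3% of all genes tested were called. *Sox3* was higher than in MBD2a by 2.75 ± 0.257 in MBD2aΔGR (adjusted p = 2.18e-06) and by 3.02 ± 0.26 in MBD2aR181C (adjusted p = 4.42e-07). *Sox21* was higher by 2.81 ± 0.31 (adjusted p = 7.77e-06) and 2.75 ± 0.309 (adjusted p = 2.88e-06), and *Sox8* differed by -1.69 ± 0.251 (adjusted p = 9e-05) and -1.10 ± 0.232 (adjusted p = 0.000756). *Sox9* was 4.38-fold higher in MBD2aR181C (adjusted p = 0.000122), whereas in MBD2aΔGR the difference was 0.99 ± 0.356 (adjusted p = 0.0367), under the fold threshold. The mutants were not tested against each other. *Sox10* differed by -4.85 ± 1.36 in MBD2aΔGR (adjusted p = 0.00998) and by -2.30 ± 0.968 in MBD2aR181C (adjusted p = 0.0542). Without the highest MBD2a library these were -3.14 (adjusted p = 0.131) and -0.59 (adjusted p = 0.677), and the difference in MBD2aR181C was called with DESeq2 (adjusted p = 0.0211). Reads of *Mbd2*, which include the endogenous gene and may include the construct, lay between 67 and 87.2 CPM in MBD2a, between 280 and 700 CPM in MBD2aΔGR and between 253 and 325 CPM in MBD2aR181C, against 64.2 to 70.9 CPM in *Mbd3* KO. In MBD2t these reads lay between 335 and 356 CPM. For protein in ESCs, the paper reported equal levels of MBD2a and MBD2aΔGR by Western blot. The part of the *Mbd2* level in the differences was not tested.

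**Figure D4:**
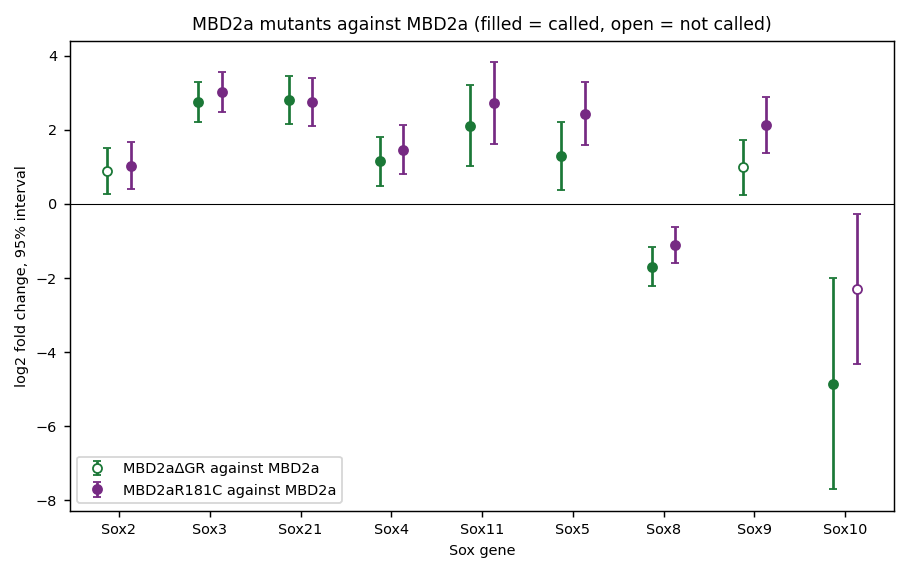
Log2 fold changes of the 9 Sox genes in MBD2aΔGR (green) and MBD2aR181C (purple) against MBD2a, with 95% intervals from 3 libraries per line. Filled points passed the threshold, and all genes lie above 0 except *Sox8* and *Sox10*.

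For each Sox gene the 2 genes of most similar pattern were sought by Pearson correlation of log2 CPM over the 24 libraries, among 12806 other genes. Libraries of a line share their genotype, so the points are not independent and the correlations serve as a description. *Sox3* was closest to *Irx5* (r = 0.995) and the Notch effector gene *Hes5* (0.993). *Sox11* was closest to *Hoxb3* and *Cracd* (both 0.996), and *Sox4* to *Magee1* (0.993) and the prion protein gene *Prnp* (0.992). *Sox21* was closest to *Grk6* (0.979) and *Hsf2* (0.968), and *Sox5* to *Esrrg* (0.972) and *Spock2* (0.970). *Sox9* was closest to *Adgrg1* (0.981) and *Wscd2* (0.962). The genes that rose had other companions, *Kif26a* (0.982) and *2900026A02Rik* (0.961) for *Sox8* and *Ttyh2* (0.967) and the amino acid transporter gene *Slc38a4* (0.961) for *Sox10*. *Sox2* had the least similar companions of the 9, the Wnt receptor gene *Fzd9* (0.950) and the proliferation gene *Top2a* (0.923).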

How the data were processed

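The authors made strand-marking libraries from poly(A) RNA and obtained single-end reads, which they trimmed with Trim Galore, aligned to mm9 with STAR, using GENCODE gene models, and counted per gene with qCount of QuasR. The deposited values are these whole-number counts, not normalized. Columns were matched to lines by the line names they carry. ChIP-seq samples of the study were not analysed here.

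Low genes were removed with filterByExpr by line and library sizes scaled by TMM. All 24 libraries entered 1 fit of edgeR 4.0.16 (R 4.3.3) by line, followed by its quasi-likelihood F test. The estimate of the spread was thus shared over all lines, including the 3 MBD2t libraries, which are repeats of 1 clone. The p-values of MBD2t hold for that clone only. A gene was called when it changed more than 2-fold at a Benjamini-Hochberg adjusted p-value below 0.05. Standard errors were derived from the log2 fold change and its F value, and 95% intervals from these. The procedure was tested on simulated counts, where it called 142 of 200 changed genes and 118 of 120 that changed 4-fold or more. The remaining changed genes were set at 2-fold, the threshold itself, and many of these were missed. Log2 CPM used a prior count of 1. With 3 libraries against 3, an exact two-sided permutation test cannot go below 0.1. No library pair agreed within sampling noise, the closest being MBD2t libraries with a chi-square of 3.38 per gene.

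The Sox genes, lists and markers were chosen with earlier results of these data known. From each list, the text names the 3 called genes that changed most in *Mbd3* KO among those averaging 1 or more in log2 CPM, and every other Sox gene. The alternatives were a fit of only the 2 lines compared, a fit without MBD2t, RLE scaling, DESeq2 1.42.0, no filter, no fold threshold, each library left out in turn and, added after the data were seen, the legacy quasi-likelihood test of edgeR.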

Additional observations from a re-analysis of the deposited data

Results flagged for a closer look

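Several Sox genes differed in level between the MBD2a line and its mutant lines, by the direct test of each mutant line against MBD2a with edgeR (3 libraries per line). Reads of *Mbd2* also differed between these lines, as given above, and their part in the Sox differences was not tested. MBD2aΔGR differed from MBD2a in *Sox3* by 2.75 on the log2 scale, in *Sox4* by 1.15, in *Sox5* by 1.30, in *Sox11* by 2.11, in *Sox21* by 2.81, in *Sox8* by -1.69 and in *Sox10* by -4.85. Without 1 library the call was lost for *Sox4* (0.93 without the MBD2a library lowest in *Sox4*, 0.84 without the MBD2aΔGR library highest in it), for *Sox5* (1.28 and 1.14 without either of the first 2 MBD2a libraries, 1.05 without the first MBD2aΔGR library) and for *Sox10* (-3.14 without the highest MBD2a library). In a fit of only these 2 lines the calls of *Sox4* (adjusted p = 0.0617), *Sox10* (adjusted p = 0.0563) and *Sox11* (adjusted p = 0.0618) were lost. MBD2aR181C differed from MBD2a in *Sox2* by 1.03, in *Sox3* by 3.02, in *Sox4* by 1.46, in *Sox5* by 2.44, in *Sox9* by 2.13, in *Sox11* by 2.72, in *Sox21* by 2.75 and in *Sox8* by -1.10. Without 1 library the call was lost for *Sox2* (0.85 and 0.93 without the first or last MBD2a library, 0.98 and 1 without the first or last MBD2aR181C library) and for *Sox8* (-0.81 without the last MBD2a library, -0.94 without the last MBD2aR181C library). The call of *Sox2* was also lost with DESeq2 and under RLE scaling (both 0.98) and in a fit of only these 2 lines (1).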

How the results depend on the processing

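For the 15 comparisons, the number of Sox genes called stayed within 1.5 times the reported one in 96 of 103 alternative values and in 83 of 90 values with 1 library left out. A fall from 9 to 8 is within this limit, so the loss of 1 call, such as that of *Sox2*, does not show in these numbers. A fit of only the 2 lines compared called 0 Sox genes in MBD2aΔGR against WT, 1 in MBD2a against *Mbd3* KO and 4 in MBD2aΔGR against MBD2a, with 13, 241 and 1699 of all genes called where the fit of all lines called 856, 871 and 3080. A fit without MBD2t called 0 and 1 Sox genes in the first 2 of these, with 472 and 725 of all genes called. The absence of a filter and the legacy quasi-likelihood test each called 1 in MBD2a against *Mbd3* KO, where *Sox10* was lost. With 1 library left out, the number ran from 0 to 2 in MBD2aΔGR against WT (121 to 1914 of all genes), from 1 to 2 in MBD2a against *Mbd3* KO, from 5 to 9 in MBD2aΔGR against MBD2a and from 8 to 9 in *Mbd3* KO against WT. DESeq2 called 23 of all genes in MBD3ΔMBD and 15 in MBD2aR181C against WT, where edgeR called 3 in each. Of 117 alternative values of the log2 fold changes in *Mbd3* KO against WT, 0 changed sign and 112 kept their side of the threshold, and the other 5 were all of *Sox2* (-1 in the fit of 2 lines, -0.97 under RLE scaling and with DESeq2). Where a call was lost, the cause was not tested. No paired analysis was possible because the columns of the table carry no replicate number. Few reads limit the values of *Sox10* in the lines other than *Mbd3* KO, MBD2a and MBD2t. Within MBD2a they also limit the library with 16 reads.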
